A study of Mus musculus with 8 samples.

Results

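The genes described here encode neuropeptides, receptors for peptides or partners of such receptors: Gal, Penk, Calca, Nmur1, Vipr2, Ramp1, Ramp3 and Calcrl. They are 8 of the 50686 genes in the deposited count table, found by the Ensembl identifiers that carry these symbols. The 8 were selected on the measured difference between E47-ER and GFP cells in these same libraries, which among the 8 was largest for Gal at both times, together with what is known of these genes in ILC2. Their levels in that comparison, and their change with time in E47-ER cells, are therefore descriptions and carry no test. Tests are given only for time in GFP cells, for the 7 genes other than Gal, and for other genes of the same pathways in every comparison. The GFP libraries were part of the selecting comparison too, so the tests of the 7 genes are not free of that choice. The lists of other genes were also chosen with earlier results of these data known. Their tests are therefore not independent of these data either.

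The libraries came from thymic ILC2 (innate lymphoid cells of group 2, a source of type 2 cytokines) of C57BL/6 mice. All mice carried the plck-Id1 transgene, in which the proximal Lck promoter drives Id1, an inhibitor of E proteins. Cells of every group were stimulated with the cytokines IL-33, IL-25 and IL-7, infected with a MIGR1 retrovirus, sorted for GFP and grown further in these cytokines. The vector carried GFP alone, or GFP with E47-ER, a fusion of the E protein E47 with the estrogen receptor that 4-hydroxytamoxifen switches on. Every culture, GFP controls included, was given 4-hydroxytamoxifen, for 4 or 16 h. The groups were thus GFP at 4 h, E47-ER at 4 h, GFP at 16 h and E47-ER at 16 h, with 2 libraries of total RNA each. Without an E47-ER library from cells not given the drug, a difference present before the drug cannot be told apart from one that came after it. Neither the age of the mice nor the origin of the replicates, from different mice or cultures or from the same, is given in the labels. The p-values therefore cover only the spread between libraries, and this spread may be technical.

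Neuropeptides are made as longer precursors, cut by proprotein convertases and carboxypeptidases, and act on receptors that mostly signal through G proteins to cyclic AMP or calcium. Nerves in barrier tissues release neuromedin U, vasoactive intestinal peptide and calcitonin gene-related peptide (CGRP), for which ILC2 carry receptors, and ILC2 themselves transcribe precursor genes such as Calca and Penk. Galanin, the product of Gal, is a neuropeptide best known from the brain, spinal cord and gut. E47 binds DNA as a dimer at the E-box, CANNTG.

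Library totals ran from 8813782 to 18677675 counts. Levels are given as CPM, counts scaled to the size of the library (its total over genes that passed a low-count filter, corrected by trimmed means, TMM). Esr1, whose reads include the estrogen receptor part of the construct, lay between 0.211 and 0.932 CPM in the 4 GFP libraries and between 43.8 and 54.5 CPM in the 4 E47-ER libraries. Tcf3, the gene of E47, lay between 67.6 and 87.6 CPM with GFP and between 146.1 and 169.9 CPM with E47-ER, and Id1, transgene included where its reads match, between 13.8 and 36.8 and between 59.9 and 81.4 CPM. Replicate 2 of GFP at 16 h stood apart, with a scaling factor of 0.854 against 1.01 to 1.03 for the others and a mean correlation of 0.947 with the other libraries against 0.976 to 0.98. In that group the median log2 difference of replicate 2 from replicate 1 was 0.43 over genes with the shortest exon lengths (up to 2896 bases) and -0.26 over those with the longest (above 5458 bases), where the other groups stayed between -0.05 and 0.05. Results that rest on this library are given with and without it. All 12 ILC2 markers, among them Gata3, Il1rl1 and Il13, were above 1 CPM in all 8 libraries. Their sum, led by Il13, was 24400 to 30500 CPM with GFP and 19400 to 21800 CPM with E47-ER. The markers went both ways. Il13, Il5, Il2ra and Areg were lower in all 4 E47-ER libraries than in all 4 GFP libraries. Rora, Thy1 and Il17rb were higher in all of them, and the other markers overlapped. Summed markers of T cells were 43.3 to 48.7 CPM with E47-ER at 16 h and 32.0 to 38.6 CPM elsewhere. Cd3e led this sum, at 33.9 and 38.3 CPM with E47-ER at 16 h and 26.0 to 29.9 CPM elsewhere. Cd4, Cd8a and Cd8b1 were below 1 CPM in every library. The myeloid sum, led by Cd68, was 22.5 to 28.9 CPM with E47-ER at 16 h and 14.6 to 24.6 CPM elsewhere. The sums were 6.26 to 13.4 for B cells, 0.401 to 1.46 for fibroblasts and 124 to 173 for endothelium, nearly all of the last from Pecam1, which leukocytes express too.

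Promoter sequences, from 250 bases before to 50 bases after the annotated start, were found in the RefSeq table (GRCm38.p6) for 7 of the 8 genes, in 8 windows because Nmur1 has 2. The windows of Gal and Calca are shown because these 2 peptide genes differed in opposite directions with E47-ER. Capitals mark CANNTG, which reads the same on both strands, and TGACG on either strand (written CGTCA on the other), a sequence of 5 letters found in many sites bound by CREB factors. The Gal window is chr19:3414495-3414794 and the Calca window chr7:114636308-114636607, both on the minus strand and both written 5′ to 3′ along the gene.
Gal: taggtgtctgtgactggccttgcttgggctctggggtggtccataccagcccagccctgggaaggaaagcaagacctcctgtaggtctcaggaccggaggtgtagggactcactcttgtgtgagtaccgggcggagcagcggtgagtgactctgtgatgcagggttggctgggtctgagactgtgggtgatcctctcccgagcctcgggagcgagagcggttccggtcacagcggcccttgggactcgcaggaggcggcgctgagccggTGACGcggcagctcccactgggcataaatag
Calca: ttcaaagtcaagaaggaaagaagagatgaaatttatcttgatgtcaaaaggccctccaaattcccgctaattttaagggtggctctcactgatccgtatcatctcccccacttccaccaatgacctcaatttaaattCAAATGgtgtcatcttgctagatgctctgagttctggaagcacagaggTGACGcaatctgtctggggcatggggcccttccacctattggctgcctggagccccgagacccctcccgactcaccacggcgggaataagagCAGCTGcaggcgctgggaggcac
The Gal window held no CANNTG and 1 TGACG, which began 20 bases after the start. The Calca window held CAAATG 113 bases before the start, CAGCTG 28 bases after it and TGACG 65 bases before it. Ramp1 had CACCTG 188 bases and Ramp3 CACCTG 130 bases before the start, and the second Nmur1 window had 5 CANNTG, while the Vipr2 and Calcrl windows had none. Over all 32851 promoter windows of the table, 72.3% held a CANNTG, 32.9% held CAGCTG or CAGGTG on either strand, and 20.8% held TGACG on either strand. The absence of a match says only that these letters are not in the window.

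Of the 3 peptide precursor genes, Gal was higher in E47-ER cells at both times, and Penk and Calca were lower at both times. Of the 5 genes for receptors and their partners, Ramp1 was higher and Calcrl lower in E47-ER cells at both times, while Nmur1, Vipr2 and Ramp3 kept no single order. The libraries of the groups did not overlap for 6 of the 8 genes at 4 h, for 7 at 16 h and for 5 when all 8 libraries were compared at once. The same held for 45.4%, 54.3% and 15.2% of all genes tested. The contrast helped to choose the 8 genes, so nothing is read from these shares.

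**Figure D1:**
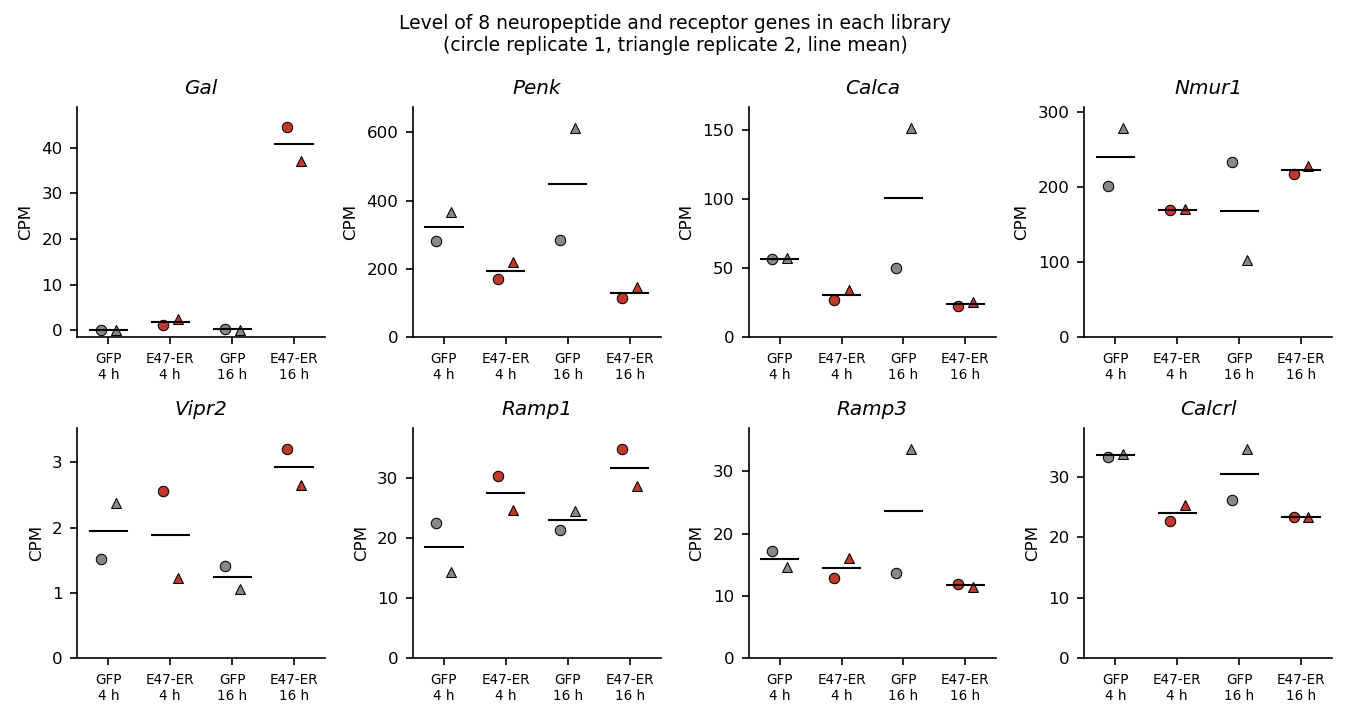
CPM of each gene (y axis, a scale of its own in each panel) in the 4 groups (x axis). Circles are replicate 1, triangles replicate 2 and lines the mean of 2 libraries. Gal reaches 44.5 and 37.1 CPM in E47-ER cells at 16 h and stays below 2.5 CPM in all other libraries, and for Penk and Calca the GFP triangle at 16 h is far above all other points.

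Gal (ENSMUSG00000024907, chromosome 19, 3409915 to 3414544 on the minus strand, GRCm38) was not counted once in GFP cells at 4 h, with 0 counts in each library. E47-ER cells at 4 h had 19 and 34 counts, or 1.22 and 2.45 CPM. GFP cells at 16 h had 6 counts in replicate 1 and 1 count in replicate 2, or 0.403 and 0.133 CPM. E47-ER cells at 16 h had 666 and 642 counts, or 44.5 and 37.1 CPM. All 4 E47-ER libraries were above all 4 GFP libraries, and the pair at 16 h was above the pair at 4 h. At 4 h the E47-ER mean of 1.83 ± 0.87 CPM (SD, n = 2) was at least 21.2-fold higher than GFP, taking 3 counts over the GFP group (0.0863 CPM) as the floor. At 16 h the means were 40.8 ± 5.25 and 0.268 ± 0.191 CPM (n = 2 each), a ratio of 152, or 101.1 against GFP replicate 1 alone. In E47-ER cells the mean at 16 h was 22.3 times that at 4 h, a fitted log2 difference of 4.49 (SE 0.335). Per kilobase of exon, Gal stood above 35.3% of all genes ranked in E47-ER cells at 4 h and above 92.8% at 16 h. Gal passed the low-count filter only through the E47-ER libraries. Fewer cells that express a gene and less RNA per cell cannot be told apart in bulk RNA, here and for every gene below.

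Markers of thymic epithelium were followed beside Gal, since these cells share the tissue. Their summed level was 5.12 to 7.08 CPM in GFP and 10.3 to 13.8 CPM in E47-ER cells at 4 h, and 6.05 to 9.05 against 20.7 to 22.8 CPM at 16 h. Nearly all of it was Epcam, which lymphocytes can also express, the only one of the 6 markers above 1 CPM in all libraries. The other 5 were below 1 CPM in every library, with Foxn1 at 0 counts and Psmb11 and Aire at 2 counts each over all 8 libraries.

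Penk (ENSMUSG00000045573, chromosome 4, 4133531 to 4138819, minus strand) encodes proenkephalin, the precursor of the opioid enkephalins. At 4 h it stood at 282 and 366.6 CPM in GFP cells and 169.8 and 219.7 CPM in E47-ER cells. The levels at 16 h were 284.7 and 612.9 CPM in GFP cells and 114.6 and 147.5 CPM in E47-ER cells. Each E47-ER library was below each GFP library, and GFP replicate 2 at 16 h was the highest of all. The ratio of means was 0.601 at 4 h (194.8 ± 35.3 against 324.3 ± 59.8 CPM) and 0.292 at 16 h (131.1 ± 23.3 against 448.8 ± 232.1 CPM, SD, n = 2 each). Against GFP replicate 1 alone the ratio at 16 h was 0.461. The fitted log2 difference was -0.74 (SE 0.337) at 4 h and -1.77 (SE 0.346) at 16 h, which became -1.12 (SE 0.248) without GFP replicate 2. Exons of Penk share 233 bases with A830012C17Rik on the opposite strand, and the strand setting of the counting is not given in the sources used here, so reads of the 2 genes may be mixed.

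Calca (ENSMUSG00000030669, chromosome 7, 114631478 to 114636357, minus strand) gives calcitonin or the alpha form of CGRP by alternative splicing, which gene counts cannot separate. GFP cells had 56.4 and 57.1 CPM at 4 h and 49.8 and 151.3 CPM at 16 h. E47-ER cells had 26.9 and 33.9 CPM at 4 h and 22.8 and 25.3 CPM at 16 h. The groups did not overlap at either time, and GFP replicate 2 at 16 h was again the highest library. At 4 h the mean was 30.4 ± 4.92 CPM with E47-ER and 56.8 ± 0.515 CPM with GFP (SD, n = 2 each), a ratio of 0.536. At 16 h the ratio was 0.239, or 0.483 against GFP replicate 1 alone. The fitted log2 difference was -0.90 (SE 0.424) at 4 h and -2.05 (SE 0.436) at 16 h, the latter -1.06 (SE 0.134) without GFP replicate 2. Calcb, a near-identical gene for the beta form of CGRP, had at most 6 counts in any library.

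Of the mast cell and basophil markers, Mcpt8 lay in the same order as Penk and Calca and the others did not. The sum of the 6 was 45.1 to 61.9 CPM in GFP and 23.1 to 30.9 CPM in E47-ER cells at 4 h, and 37.4 to 133 against 23.1 to 29.6 CPM at 16 h. Mcpt8 alone made up nearly all of it, at 44.9 and 61.6 CPM in GFP and 22.9 and 30.6 CPM in E47-ER cells at 4 h. Of the 6 markers, Mcpt4, Fcer1a and Tpsb2 had 0 counts in all 8 libraries, and Cma1 had 3 counts over all of them. Cpa3 lay the other way at 16 h, at 0.134 and 0.133 CPM in GFP and 0.267 and 1.1 CPM in E47-ER cells, on 42 counts over all libraries. Only Mcpt8 was above 1 CPM in each library. The 10 neuron and glia markers summed to 38.8 to 50.0 CPM in GFP and 26.6 to 32.9 CPM in E47-ER cells at 4 h, and to 47.7 to 97.3 against 22.9 to 23.9 CPM at 16 h. Uchl1 led that list, and 6 of its 10 markers were below 1 CPM in every library. The part of Mcpt8-expressing or Uchl1-expressing cells in the levels of Penk and Calca was not tested.

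Receptor genes for the 3 peptides had few or no counts apart from those for CGRP. The galanin receptor gene Galr1 had 4 counts and Galr2 had 64 counts over all 8 libraries, with no more than 18 in any. Galr2 still passed the low-count filter, and it was not called between E47-ER and GFP cells at 4 h or 16 h. Among opioid receptors, Oprm1 had 2, Oprd1 4, Oprl1 3 and Oprk1 0 counts in all. Calcr, the calcitonin receptor gene, had 0 counts and Ramp2, a partner of adrenomedullin receptors, had 24. Of the ligand genes of the other receptors, Nmu had 1 count, Nms 2 and Vip 0 over all libraries. Adcyap1, the gene of PACAP, which also binds the Vipr2 receptor, passed the low-count filter. It was not called between E47-ER and GFP cells at 4 h or 16 h. Galr3 was not found by its symbol in the count table, so its level is not known here.

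Nmur1 (ENSMUSG00000026237, chromosome 1, 86386303 to 86426228, minus strand) encodes receptor 1 for neuromedin U, a peptide that activates ILC2. GFP cells had 201.2 and 279.2 CPM at 4 h and 234.2 and 102.5 CPM at 16 h. E47-ER cells had 169.5 and 170.5 CPM at 4 h and 217.9 and 228.9 CPM at 16 h. At 4 h the E47-ER libraries were below both GFP libraries, at a ratio of 0.708. At 16 h the groups overlapped, since GFP replicate 2 was the lowest and replicate 1 the highest library of that time. The ratio at 16 h was 1.33 over both GFP libraries and 0.954 against replicate 1, and the fitted log2 difference went from 0.40 (SE 0.334) to -0.08 (SE 0.147) without replicate 2.

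Vipr2 (ENSMUSG00000011171, chromosome 12, 116077726 to 116146261, plus strand) encodes the VPAC2 receptor for vasoactive intestinal peptide and the related peptide PACAP. Its level was low, from 1.06 to 3.21 CPM, on 249 counts over all libraries. At 4 h GFP cells had 1.52 and 2.38 CPM and E47-ER cells 2.56 and 1.22 CPM, which overlapped. At 16 h GFP cells had 1.41 and 1.06 CPM and E47-ER cells 3.21 and 2.65 CPM, which did not. The ratio of means was 0.971 at 4 h and 2.37 at 16 h, with fitted log2 differences of -0.04 (SE 0.408) and 1.20 (SE 0.437). Vipr1, the gene of the other receptor for the same peptides, had 30 counts in all.

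Calcrl (ENSMUSG00000059588, chromosome 2, 84330626 to 84425411, minus strand) encodes the receptor that forms a CGRP receptor with the product of Ramp1 and an adrenomedullin receptor with that of Ramp3. It stood at 33.3 and 33.8 CPM in GFP and 22.7 and 25.4 CPM in E47-ER cells at 4 h, and at 26.2 and 34.6 against 23.4 and 23.4 CPM at 16 h. All E47-ER libraries were below all GFP libraries, at ratios of 0.717 and 0.77. The fitted log2 difference was -0.48 (SE 0.162) at 4 h and -0.37 (SE 0.164) at 16 h, or -0.17 (SE 0.135) at 16 h without GFP replicate 2.

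Ramp1 (ENSMUSG00000034353, chromosome 1, 91179822 to 91225196, plus strand) lay the other way. GFP cells had 22.6 and 14.4 CPM at 4 h and 21.4 and 24.6 CPM at 16 h, and E47-ER cells 30.5 and 24.8 CPM at 4 h and 34.9 and 28.7 CPM at 16 h. All 4 E47-ER libraries were above all 4 GFP libraries, though E47-ER replicate 2 at 4 h passed GFP replicate 2 at 16 h by little. The ratio was 1.49 at 4 h and 1.38 at 16 h, with fitted log2 differences of 0.58 (SE 0.234) and 0.47 (SE 0.235). Both partners of the CGRP receptor were thus detected in all libraries, with Ramp1 higher and Calcrl lower in E47-ER cells.

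Ramp3 (ENSMUSG00000041046, chromosome 11, 6658521 to 6677475, plus strand) showed little difference apart from the library that stood apart. At 4 h it had 17.1 and 14.7 CPM in GFP and 12.8 and 16.1 CPM in E47-ER cells, which overlapped. At 16 h it had 13.7 and 33.6 CPM in GFP and 11.9 and 11.4 CPM in E47-ER cells. The ratio at 16 h was 0.495 over both GFP libraries and 0.853 against replicate 1. The fitted log2 difference was -0.14 (SE 0.359) at 4 h and -0.98 (SE 0.366) at 16 h, the latter -0.24 (SE 0.183) without GFP replicate 2. Exons of Ramp3 share 101 bases with the pseudogene Gm11978 on the opposite strand.

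**Figure D2:**
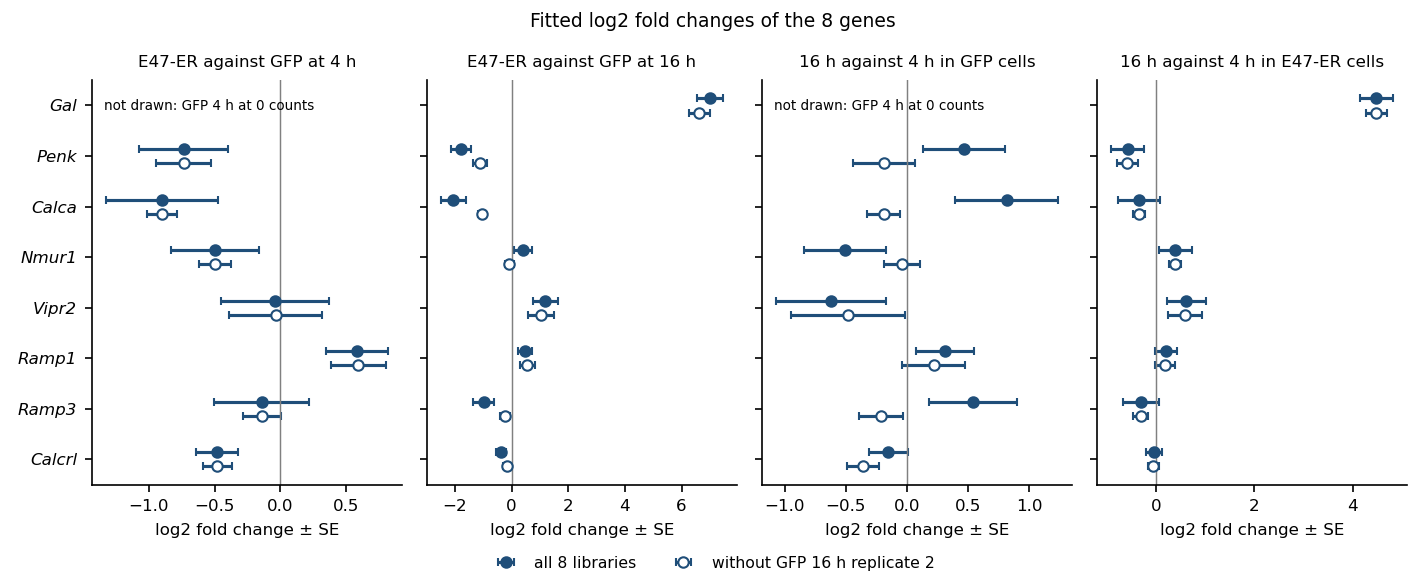
Fitted log2 fold changes with standard errors (x axis, a scale of its own in each panel) of the 8 genes (y axis) for E47-ER against GFP at 4 h and 16 h and for 16 h against 4 h in GFP and in E47-ER cells. Filled points use all 8 libraries and open points leave out GFP replicate 2 at 16 h. Calca at 16 h moves from -2.05 to -1.06 when that library is left out, while Gal at 16 h stays at 6.62 or above.

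The median log2 difference of the 8 genes was -0.31 at 4 h and 0.02 at 16 h, beside -0.004 and -0.006 over all genes tested. Without GFP replicate 2 at 16 h, the median at 16 h was -0.12, beside 0.005 over all genes. The contrast helped to choose the 8 genes, so nothing is read from these medians.

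Between 4 and 16 h in GFP cells, none of the 7 genes other than Gal was called by edgeR's quasi-likelihood test, beside 0.0% of 13644 genes. The GFP libraries also entered the comparison that chose these genes, so the p-values of the 7 genes are not free of that choice. Over all genes, 1238 had an unadjusted p under 0.05 and DESeq2 called 0. Penk differed by 0.47 on the log2 scale (adjusted p = 0.552), Calca by 0.81 (adjusted p = 0.5) and Ramp3 by 0.54 (adjusted p = 0.534). Nmur1 differed by -0.51 (adjusted p = 0.533), Vipr2 by -0.62 (adjusted p = 0.552), Calcrl by -0.15 (adjusted p = 0.669) and Ramp1 by 0.31 (adjusted p = 0.565). Gal went from 0 and 0 to 6 and 1 counts and is given without a test, since only its level in E47-ER cells brought it past the low-count filter. Without replicate 2 the differences of Penk, Calca and Ramp3 were -0.19, -0.19 and -0.21, adjusted p was 0.756 or higher for all 7 genes, and 0.00707% of all genes were called. Without replicate 1, so that the library that stood apart was the only one of GFP at 16 h, Penk, Calca and Ramp3 were called higher and Nmur1 lower, beside 41.8% of all genes. The direction of Penk, Calca and Ramp3 with time in GFP cells thus rested on replicate 2. These tests do not show that the levels were equal.

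The same library set the spread between replicates. On the log2 scale, replicate 2 differed from replicate 1 of GFP at 16 h by 1.6 for Calca, 1.29 for Ramp3, 1.11 for Penk and -1.19 for Nmur1, where the median absolute difference over all genes was 0.467. Of all genes, 5.86% differed by more than Calca and 14.4% by more than Penk. In the other 3 groups the median absolute difference over all genes was 0.128 to 0.153, and Penk differed by 0.36 to 0.38, with replicate 2 higher each time. Vipr2 in E47-ER cells at 4 h differed by -1.04, on 40 and 17 counts, and Gal there by 0.99, on 19 and 34.

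**Figure D3:**
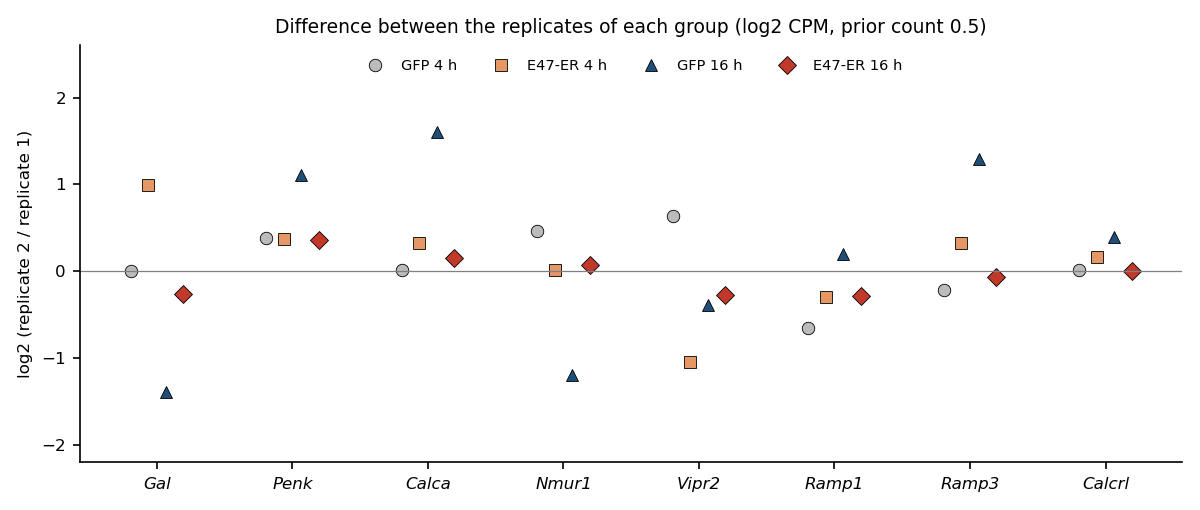
Log2 ratio of replicate 2 to replicate 1 (y axis, CPM with a prior count of 0.5) for the 8 genes (x axis) in the 4 groups (symbols). GFP at 16 h (triangles) lies farthest from 0 for Gal, Penk, Calca, Nmur1, Ramp3 and Calcrl, from -1.39 for Gal to 1.6 for Calca.

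Levels of different genes are compared as CPM per kilobase of exon. In GFP cells at 4 h the order was Penk (198), Nmur1 (142), Calca (33.7), Ramp3 (11.5), Calcrl (6.88), Ramp1 (6.13), Vipr2 (0.436) and Gal (0), and only the libraries of Calcrl and Ramp1 overlapped between neighbours. With E47-ER at 4 h Penk (119) and Nmur1 (100) still led, Ramp3 (10.5) and Ramp1 (9.14) overlapped, and Gal (2.32) was above Vipr2 (0.424). In GFP cells at 16 h Penk (275) was followed by Nmur1 (99.3) and Calca (59.7), which overlapped, as did Ramp1 (7.62) and Calcrl (6.23) and the 2 lowest, Gal (0.34) and Vipr2 (0.277). In E47-ER cells at 16 h no neighbours overlapped, and the order was Nmur1 (132), Penk (80.2), Gal (51.7), Calca (14.3), Ramp1 (10.5), Ramp3 (8.47), Calcrl (4.79) and Vipr2 (0.657). Gal went from the last place in GFP cells at 4 h to the third of the 8 genes in E47-ER cells at 16 h. Penk was above 95.6% or more of all genes ranked in every group.

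The 8 genes were set among 217 others in 5 lists, of which 215 were in the table and 80 passed the low-count filter. These lists were chosen with earlier results of these data known, so the shares called among them are not free of that choice. For ligands, 6 of 41 other genes passed and for peptide receptors and their partners 5 of 45. For receptors of acetylcholine, amines, GABA and histamine 9 of 52 passed, for peptide processing and degradation 17 of 29, and for G protein and cyclic AMP signalling 43 of 48. By mean level per kilobase over the 8 libraries, Penk (168.1) and Calca (31.4) led the ligands and Nmb, the gene of neuromedin B (13.6), followed just above Gal (13.6). Nmur1 (118.3) led the receptors, before Crcp (22.2), a gene for a cofactor of CGRP receptors, and Ramp3 (11.9). Htr1b, a serotonin receptor gene (32.4), Gabbr1, a GABA-B receptor subunit gene (5.1), and Chrna2, a nicotinic receptor subunit gene (1.5), led the transmitter receptors. Furin, a proprotein convertase (373), Cpd, carboxypeptidase D (33.8), and Ide, the insulin-degrading enzyme (17.2), led processing. The signalling list was led by Gnai2 (279.2), an inhibitory G protein subunit gene, Rgs1 (185.3), which encodes an inhibitor of such G proteins, and Prkar1a (165.5), a regulatory subunit gene of protein kinase A.

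**Figure D4:**
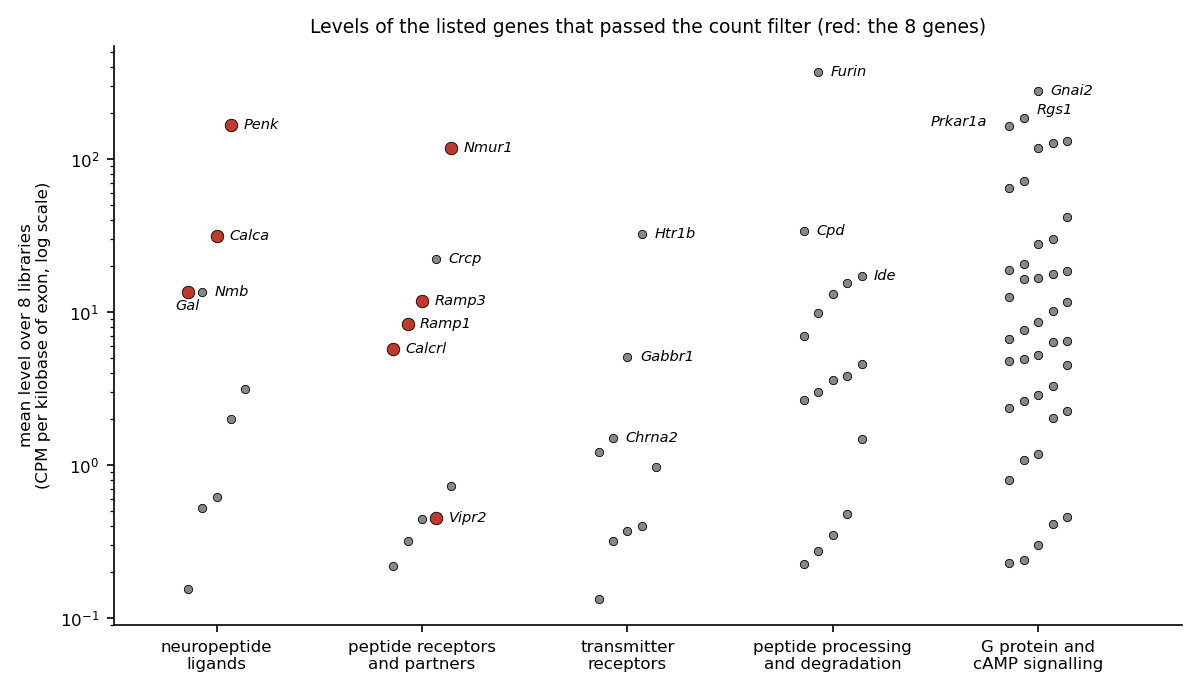
Mean CPM per kilobase of exon over the 8 libraries (y axis, log scale) of the listed genes that passed the low-count filter, by list (x axis). Red points are the 8 genes and named grey points are the highest of each list. Penk at 168.1 and Nmur1 at 118.3 stand above all other points of their lists.

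With all 8 libraries, 0 of the 80 other listed genes were called at 4 h, beside 0.286% of all genes tested (edgeR, 5 with an unadjusted p under 0.05; DESeq2 called 1). At 16 h, 1 was called, Prkacb, beside 1.59% of all genes tested (21 with an unadjusted p under 0.05; DESeq2 called 8). Prkacb, a catalytic subunit of protein kinase A, had 121.3 and 112.3 CPM in GFP and 182.5 and 175.6 CPM in E47-ER cells after 4 h. At 16 h it had 113.5 and 88.5 CPM in GFP and 186 and 193.2 CPM in E47-ER cells. All E47-ER libraries were above all GFP libraries. At 16 h the log2 difference was 0.91 (SE 0.148, edgeR, adjusted p = 0.0271) and at 4 h 0.62 (SE 0.146, adjusted p = 0.297). The call at 16 h held in 2 of the 8 fits without a library, those without a GFP library at 16 h, and adjusted p reached 0.311 in the others. The smallest unadjusted p of the other lists at 4 h were 0.208 for Cck, 0.0393 for Avpr2, 0.0957 for Gabbr1 and 0.0109 for Pcsk1, the convertase 1 gene. At 16 h they were 0.0341 for Cck, 0.0332 for Avpr2, 0.000852 for Gabbr1 and 0.00217 for Pcsk4, of which Gabbr1 came closest to the threshold (adjusted p = 0.0521). The median log2 difference of the 80 genes was -0.07 at 4 h and 0.07 at 16 h, beside -0.004 and -0.006 over all genes tested.

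Without GFP replicate 2 at 16 h, 4 of 82 other listed genes were called at 4 h (4.88%, beside 4.33% of all genes), all of them in the signalling list. Prkacb differed by 0.62 and Crtc3, a coactivator of CREB, by 0.33. Prkar2b, a regulatory subunit of protein kinase A, differed by -0.76 and Pde3b, a phosphodiesterase that breaks down cyclic AMP, by -0.30. The left-out library is not part of the comparison at 4 h. Without it the difference of Prkacb at 4 h moved only from 0.616 to 0.62. Its SE fell from 0.146 to 0.0788, since all groups share 1 estimate of the spread. At 16 h, 11 of 82 were called (13.4%, beside 8.92% of all genes), 4 higher and 7 lower with E47-ER. The higher genes were Prkacb (0.73), Gabbr1 (0.60), Grk6, a kinase of activated receptors (0.51), and Plcb2, a phospholipase C (0.49). The lower ones were Pcsk4, a proprotein convertase (-0.81), Thop1 and Prep, which degrade peptides (-0.56 and -0.45), Cpd (-0.46), Prkar2b (-0.54), Rgs1 (-0.37) and Htr1b (-0.34). Pcsk4, Thop1, Prep and Cpd belong to the processing list, of which 0 of 17 tested genes were called at 16 h with all 8 libraries. When GFP replicate 1 at 16 h was left out instead, the differences of Cpd, Thop1 and Prep were 0.001, 0.131 and 0.627. With all 8 libraries Prep differed by -0.01, since GFP replicate 2 at 16 h was its lowest library. The difference between the 16 h and 4 h effects was called for 0 of the 82, beside 0.0424% of all genes (9 with an unadjusted p under 0.05), and with all 8 libraries for 0 of the 80, beside 0.0% of all genes (7 with an unadjusted p under 0.05; DESeq2 called 0).

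**Figure D5:**
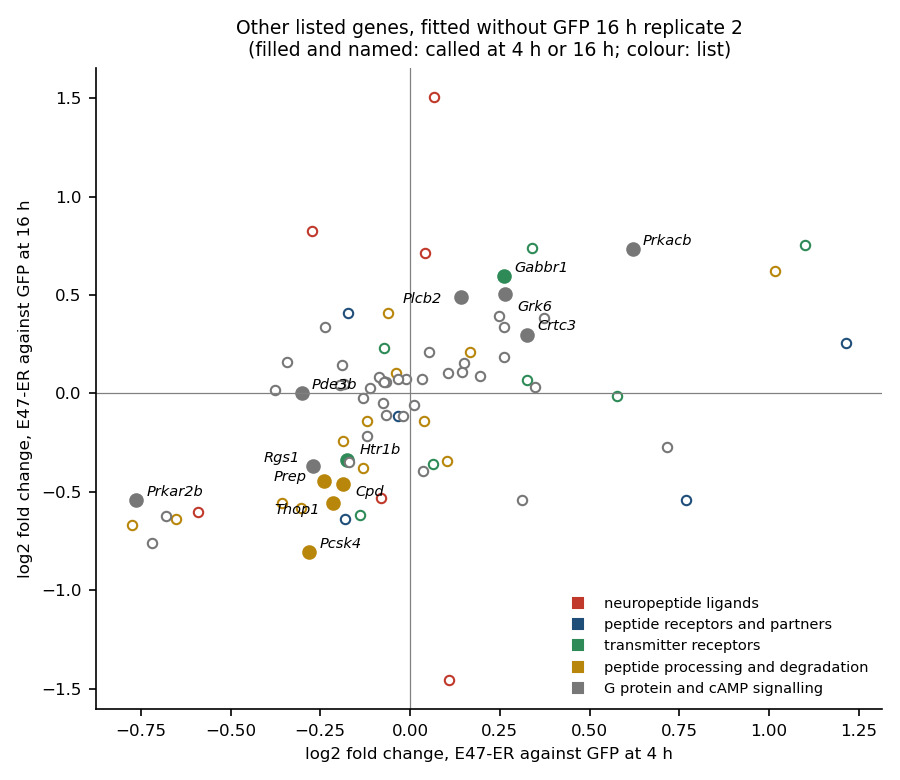
Log2 fold change of E47-ER against GFP at 4 h (x axis) and 16 h (y axis) of the other listed genes, fitted without GFP replicate 2 at 16 h and coloured by list. Filled, named points were called at either time, with Prkacb at 0.62 and 0.73 in the upper right and Prkar2b at -0.76 and -0.54 in the lower left.

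Between 4 and 16 h in E47-ER cells, 0 of the 80 other listed genes were called with all libraries, beside 0.0147% of all genes (6 with an unadjusted p under 0.05; DESeq2 called 0). Without GFP replicate 2, 9 of 82 were called (11%, beside 3.08% of all genes). Avpr2, the vasopressin V2 receptor gene, fell by 1.34 on the log2 scale (adjusted p = 0.0226) and Adcy4, an adenylyl cyclase, fell by 0.92 (adjusted p = 0.0129). Pcsk4 (-0.69), Cpd (-0.38), Rgs1 (-0.34), Htr1b (-0.33) and Furin (-0.28) fell, and Dpp4, a peptidase (0.47), and Grk6 (0.33) rose. GFP replicate 2 at 16 h is not part of this comparison, and the E47-ER libraries were the same in both fits. Leaving it out moved the difference of Cpd only from -0.366 to -0.378. The SE of Cpd fell from 0.171 to 0.0858, since all groups share 1 estimate of the spread. The added calls thus rest on that shared estimate. In GFP cells 0 listed genes were called between times with or without that library (2 with an unadjusted p under 0.05 with all libraries; DESeq2 called 0).

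Genes whose log2 CPM followed each member most closely over the 8 libraries were ranked by Pearson's r among 10784 genes. The points share libraries and groups, so these values are descriptions. Gal was followed by Cd163l1 (0.982), Ltb (0.98), Cd101 (0.974), Cd7 (0.974) and Il16 (0.971). Ltb, the lymphotoxin beta gene, had group means of 21.2, 46.9, 30.9 and 110 CPM in GFP and E47-ER cells at 4 h and then at 16 h. Penk was followed by Vim (0.996), Fam124a (0.992) and Sccpdh (0.986), and Calca by Mrps6 (0.995), Bsg (0.993) and Uxs1 (0.993). For Nmur1 they were Zbtb21 (0.981), Tango6 (0.979) and Spred2 (0.979), and for Ramp3 Chmp4b (0.991), Ubxn4 (0.991) and Mfsd5 (0.99). The r of Calcrl with Soat1 was 0.959, with Socs6 0.949 and with Fbxo31 0.947. Vipr2 was followed by Ufl1 (0.961), Elmod3 (0.956) and Sephs1 (0.951), and Ramp1 by Ei24 (0.933), Pcsk1 (0.925) and Zfp113 (0.923). The number of genes with r above 0.9 was 1044 for Ramp3, 563 for Calca, 252 for Penk and 209 for Nmur1, which like Gal differed by 1.11 or more (log2) between the GFP libraries at 16 h. It was 99 for Gal, 39 for Calcrl, 26 for Vipr2 and 11 for Ramp1.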

How the data were processed

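RNA sequencing of total RNA gave 8 libraries in 4 groups of 2, all used. The authors deposited raw counts, whole numbers for each Ensembl gene in each library, with no normalization. Per the submitters' processing notes the genome was mm10 and the tools included DESeq2, whose version and role are not stated. The aligner, counter, annotation and strand setting were not given in the sources used here. Of 50686 identifiers, 50462 were found in GENCODE release M21 (GRCm38), the source of symbols, positions and exon lengths, and 224 had no symbol.

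The analysis used edgeR 4.0.16 under R 4.3.3. filterByExpr with a minimum count of 10 kept 13644 genes, all 8 members among them. After TMM scaling, 1 robust quasi-likelihood model of all 8 libraries held a mean for each group. Two-sided p-values were adjusted over all genes tested (Benjamini-Hochberg), and "called" means an adjusted p under 0.05. SE is the absolute log2 fold change over the square root of F. Fits were tested on simulated data. Without replicate 2 of GFP at 16 h, 14146 genes passed, and the other library of its group is assumed to vary as libraries of the other groups do. Alternatives were DESeq2 1.42.0, RLE scaling, no low-count filter, the replicate number as a block, and leaving out each library.

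The 8 members, the 5 lists and the marker lists were chosen with earlier results of these data known. Named genes were the members, Esr1, Tcf3 and Id1, the called genes of each list (up to 6 a comparison, with or without replicate 2 of GFP at 16 h), the gene with the smallest p where a list had no call, the 3 highest of each list, the receptors of galanin, enkephalins and CGRP, and the 5 (Gal) or 3 genes with the highest r. Counting non-overlapping groups and searching TGACG were chosen after the data were seen, as was naming Mcpt8, Uchl1 and the ligand genes of the other receptors. Likeness used log2 CPM with a prior count of 0.5 and genes with a mean of at least 0, without predicted genes and pseudogenes. Figures were drawn with matplotlib 3.10.9.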

Additional observations from a re-analysis of the deposited data

Results flagged for a closer look

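The time difference of Vipr2 ran in opposite directions in the 2 kinds of cells. Both GFP libraries were lower at 16 h than at 4 h, and both E47-ER libraries were higher. The difference between these log2 changes was 1.235 (SE 0.599). It was not tested, since the E47-ER libraries had helped to choose the gene. The margin in E47-ER cells was thin, with 2.65 CPM in the lower library at 16 h and 2.56 CPM in the higher at 4 h. The E47-ER libraries at 4 h held 40 and 17 counts. The share of all genes with such opposite orders is not given, here or for the genes below.

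Among the other listed genes, Avpr2 was higher in both E47-ER libraries than in both GFP libraries at 4 h and lower in both at 16 h, a difference of -1.661 between the log2 effects (edgeR, adjusted p = 0.699). Gabbr1 and Pde3b were lower in both GFP libraries at 16 h than at 4 h and higher in both E47-ER libraries, with differences of 0.455 (adjusted p = 0.699) and 0.386 (adjusted p = 0.699). None of these 3 differences was called with or without replicate 2 of GFP at 16 h.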

How the results depend on the processing

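Of the log2 differences of the 8 genes under an alternative, 374 kept their direction and their side of the threshold (or, where no test applies, moved by less than 1 SD), 5 passed the threshold only there (Penk, Calca, Nmur1 and Ramp3 between times in GFP cells without GFP replicate 1 at 16 h, and Gal there with no filter, on counts too few to be read), 4 reversed and 1 moved further. Some differences without a test also crossed 0 over the alternatives. For E47-ER against GFP, Nmur1 at 16 h ran from -0.076 to 1.145, Vipr2 at 4 h from -0.677 to 0.381 and Ramp3 at 4 h from -0.315 to 0.012. Calcrl between times in E47-ER cells ran from -0.117 to 0.044. With RLE scaling every count stayed within 1.5 times its value. DESeq2 called 122 genes at 4 h, 1052 at 16 h and 24 between times in E47-ER cells, and 1 and 8 of the other listed genes at 4 h and 16 h. With no filter on low counts, 165 genes were called at 4 h, 1816 at 16 h, 53 for the difference between times, 305 between times with GFP and 53 with E47-ER, and 11 other listed genes at 16 h. Samples share only a replicate number, and correlations of same-numbered deviations ran from -0.0782 to 0.175. With the replicate block, 28, 195, 0, 0 and 0 genes were called at 4 h, 16 h, for the difference, and between times with GFP and with E47-ER. Leaving out 1 library, the genes called ran from 1 to 619 at 4 h, 15 to 7022 at 16 h, 0 to 5124 for the difference, 0 to 6034 between times with GFP and 0 to 440 with E47-ER. For the other listed genes they ran from 0 to 4, 0 to 40, 0 to 35, 0 to 35 and 0 to 9. The highest counts came without a GFP library at 16 h. Over these fits the time differences in GFP cells ran from -0.190 to 0.894 for Penk, -0.191 to 1.39 for Calca and -0.214 to 1.056 for Ramp3, the lowest without GFP replicate 2 at 16 h, and from -0.359 to 0.021 for Calcrl, the highest without replicate 1. The 16 h differences ran from -0.458 to 0.001 for Cpd, -0.558 to 0.131 for Thop1, -0.445 to 0.627 for Prep and -0.542 to 0.196 for Prkar2b, the highest without GFP replicate 1, where Gal stood at 8.19. Prep, at -0.014, took 0.033 with no filter, 0.041 with the block and 0.004 without E47-ER replicate 2 at 16 h. The cause was not tested. Depth limits Gal in GFP cells and Vipr2, which rest on 7 and 249 counts.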
